A study of Rattus norvegicus with 16 samples.

Results

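Nuclear receptors are transcription factors that are switched by small lipophilic molecules, by metabolites or by the amount of receptor made. Many of the liver's receptors can bind DNA as a heterodimer with a retinoid X receptor (RXR), among them CAR and PXR, which sense drugs and other foreign compounds and switch on cytochrome P450 and transporter genes, and the receptors for oxysterols, fatty acids, retinoic acid, thyroid hormone and vitamin D. In the liver these receptors set the expression of genes for drug clearance, lipid use and hormone response. The account below covers 36 gene symbols of the superfamily, listed by name without the clock, bile acid and glucocorticoid receptors. Of these, 35 were among the 17055 symbols counted, the exception being Nr6a1.

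The RNA came from livers of 48 male Sprague-Dawley rats aged 10 weeks, all mechanically ventilated on oxygen, with livers taken 8 h after opening of the abdomen. Isoflurane-Sepsis (libraries 1 to 4) and isoflurane control rats (libraries 5 to 8) received isoflurane throughout, and Propofol-Sepsis (libraries 9 to 12) and propofol control rats (libraries 13 to 16) received ketamine with xylazine for induction and then propofol. Sepsis was made by cecal ligation and puncture, and the control rats had a sham operation without it. Each library pooled 3 rats, so each group has 4 libraries from 12 rats, and the spread is between pools. Every group was anesthetized and operated, and none is of unhandled rats. The names of the libraries carry a different run code for each anesthetic, so anesthetic, induction drugs and library series cannot be told apart, whereas sepsis and control are compared within an anesthetic.

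Values are CPM, the reads of a gene per 1000000 reads on genes, after TMM scaling, which corrects for differences in RNA composition. The differences are log2 fold changes from a quasi-likelihood fit in edgeR, and a gene is called where the p adjusted over all genes tested is below 0.05. The value after ± is an approximate standard error (SE). It was worked back from the test, as the size of the log2 fold change over the square root of the F statistic. After a mean CPM, ± gives the SD. Libraries held 14199422 to 49937173 reads on genes, in which 1 read was worth 0.0208 to 0.0644 CPM. All 8 hepatocyte markers examined were counted, at a summed 79830 to 127900 CPM, while adrenal markers summed to 2.71 to 9.69 CPM, with Cyp11b1 and Cyp11a1 at 0, and pancreatic markers to at most 0.341 CPM, with Prss1 and Cela2a at 0. Library 10, a Propofol-Sepsis library, stood apart with a summed 398 CPM on 15 brain markers against 6.19 to 27.3 CPM in the 15 other libraries. Markers of neutrophils and monocytes summed to 36.5 to 116 CPM in Isoflurane-Sepsis against 17.5 to 20.4 in its controls, and to 36.3 to 53.4 CPM in Propofol-Sepsis against 18.3 to 25.1. Hepatocyte markers summed to 97900 to 110700 CPM in Isoflurane-Sepsis and 119200 to 127900 in its controls, and to 79830 to 89330 and 86510 to 96920 CPM under propofol. Most of these sums was Alb, and of 8 markers tested 3 were called lower and 0 higher in each anesthetic. Macrophage markers summed to 291 to 384 CPM in Isoflurane-Sepsis and 245 to 311 in its controls, and to 285 to 329 and 292 to 333 CPM under propofol, and 5 of 7 tested were called higher and 1 lower under isoflurane and 2 higher and 1 lower under propofol. Of lymphocyte markers 2 of 2 and of cholangiocyte markers 2 of 3 were called higher under isoflurane, and 0 of 2 and 1 of 3 under propofol. Endothelial markers summed to 114 to 130.2 CPM in Isoflurane-Sepsis and 159 to 194.5 in its controls, and to 156 to 163 and 187 to 226 CPM under propofol. Of 6 tested, 4 were called lower and 0 higher under isoflurane, and 2 lower and 1 higher under propofol. The part of these shifts in the receptor values was not tested. In whole liver, fewer cells of a type and less RNA per cell cannot be told apart.

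Of the 35 counted receptors, 29 had enough reads for the test in every comparison. Of these 29, 20 were called in each anesthetic, where 50% of all genes tested were called under isoflurane and 42.1% under propofol. Under isoflurane 12 were lower after sepsis (41.4%) and 8 higher (27.6%), where 24.4% of all 10361 genes tested were called lower and 25.7% higher. Under propofol 13 were lower (44.8%) and 7 higher (24.1%), where 21.7% of 10348 genes were called lower and 20.4% higher. The receptors' median absolute log2 fold change was 0.84 under isoflurane, where it was 0.36 over all genes, and 0.76 under propofol, where it was 0.27. In the isoflurane comparison the groups did not overlap for 12 receptors that were lower and 8 that were higher (24.4% and 24.3% of all genes), and in the propofol comparison for 13 and 5 (21.1% of all genes in each direction). Nr1i3 (both anesthetics), Rxrg (isoflurane) and Nr4a3 (propofol) had a median under 10 reads in a group and were tested because they were higher in the opposite group. In those comparisons the group with few reads could only come out lower, so the direction of these calls is no evidence. Esrrg, with 4 to 21 reads per Isoflurane-Sepsis library, was close to this limit. The counts describe the receptors that passed and not all 36.

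The receptors called lower in both anesthetics numbered 11, namely Nr1i2, Nr1i3, Nr1h3, Nr2c1, Nr3c2, Pparg, Rxra, Rxrg, Thrb, Esrrg and Hnf4g. Those called higher in both numbered 6, namely Nr2c2, Nr4a1, Nr4a2, Nr4a3, Nr5a2 and Rora. No receptor was called in opposite directions. The share of all genes called in the same or in opposite directions in both anesthetics was not counted, so this agreement is not shown to be particular to the receptors. Ppard and Rxrb (higher) and Rarg (lower) were called under isoflurane alone, and Nr1h2 (higher), Rara and Esr1 (lower) under propofol alone, but in none of them was the interaction of anesthetic and sepsis called. Nr2f1, Nr2f2, Nr2f6, Ppara, Rarb and Thra were called in neither.

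**Figure D1:**
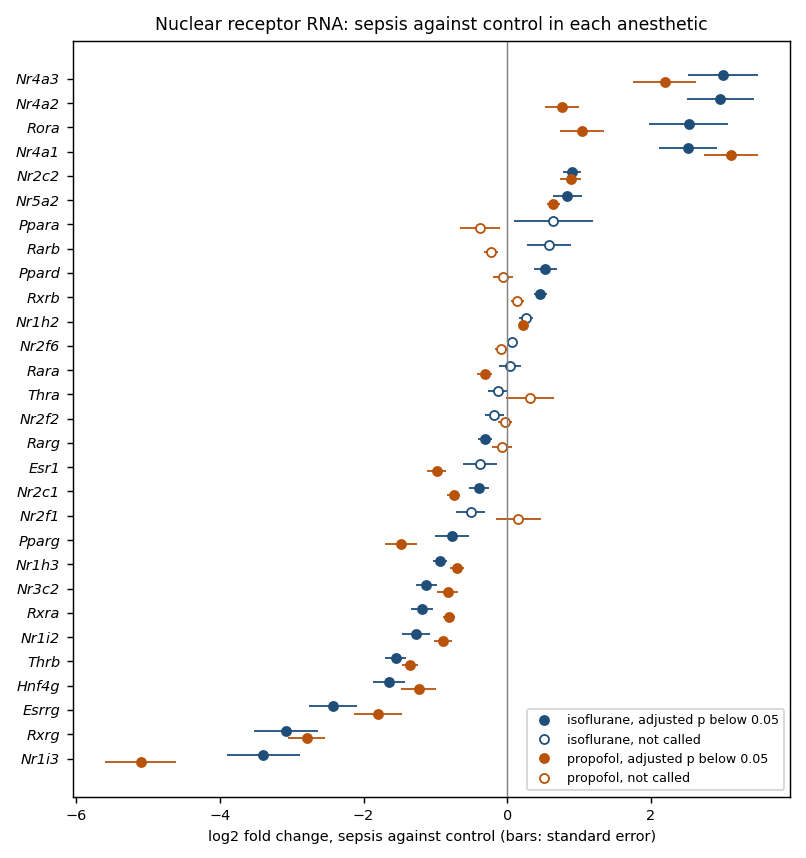
Log2 fold change of each of the 29 tested receptors (vertical axis, by symbol) in sepsis against control, under isoflurane (blue) and propofol (orange), with bars for the approximate standard error. Filled points have an adjusted p below 0.05 and open points do not. Nr1i3 is lowest in both anesthetics (-3.4 and -5.1), and Nr4a3, Nr4a2, Rora and Nr4a1 are at the top.

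The upstream sequences of Nr4a1 and Nr1i3 are shown because these genes stand near the opposite ends of the response, Nr1i3 with the lowest log2 fold change in both anesthetics and Nr4a1 with the highest under propofol. Each is 250 bases up to the annotated start, 5′ to 3′, from RefSeq on build GRCr8, in which 31 of the 36 receptors have such a window and Hnf4g, Nr2f2, Nr3c2, Nr4a3 and Ppard do not. Capitals mark TGCGTCA, a cAMP response element-like motif, in the Nr4a1 sequence (chr7:134259888-134260137, plus strand) and TGAGTCA, an AP-1 motif, in the Nr1i3 sequence (chr13:86165170-86165419, plus strand).
Nr4a1: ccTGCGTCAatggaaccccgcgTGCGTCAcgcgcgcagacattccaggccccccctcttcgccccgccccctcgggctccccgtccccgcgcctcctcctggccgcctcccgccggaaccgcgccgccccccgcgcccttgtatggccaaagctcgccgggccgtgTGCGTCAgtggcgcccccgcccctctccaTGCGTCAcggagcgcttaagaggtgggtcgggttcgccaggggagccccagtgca
Nr1i3: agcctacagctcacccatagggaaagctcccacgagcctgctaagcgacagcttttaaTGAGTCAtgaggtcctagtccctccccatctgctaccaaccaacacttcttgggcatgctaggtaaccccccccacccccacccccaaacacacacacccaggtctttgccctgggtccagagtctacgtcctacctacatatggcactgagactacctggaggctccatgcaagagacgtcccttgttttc
The Nr4a1 sequence holds 4 copies of TGCGTCA, which begin 248, 228, 84 and 55 bases before the start. On either strand (TGCGTCA or TGACGCA) that motif was in 1.66% of 33469 such windows of all genes and in no other receptor, and a count of 4 or more was found in 1 window, this one. The AP-1 motif on either strand (TGACTCA or TGAGTCA) was in 4.05% of windows and, among the receptors, in Nr1i3, where it begins 192 bases before the start, and Pparg. The core letters of a nuclear receptor element, AGGTCA or TGACCT, were in 14.1% of windows and in those of Esrrg, Nr0b1, Nr5a2 and Rarg. The full cAMP response element TGACGTCA was in 1.59% of windows and in no receptor's. No searched motif contains another. The motifs were chosen after the sequences had been seen, and a match is a description of letters. The count of 4 is that of the Nr4a1 window itself, so its being the only window at that count is no test.

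CAR and PXR, the liver's sensors of foreign compounds, both had less RNA after sepsis. CAR (Nr1i3) fell 10.5-fold under isoflurane and 34.4-fold under propofol, and PXR (Nr1i2) fell 2.41-fold and 1.86-fold. For Nr1i3 the isoflurane control libraries had 2.35, 3.96, 5.203 and 5.06 CPM and the Isoflurane-Sepsis libraries 0.1996, 0.387, 0.881 and 0.0604 CPM. Under propofol, controls had 8.56, 12.9, 18.5 and 10.8 CPM and septic libraries 1.02, 0.293, 0.0534 and 0.213 CPM. The groups did not overlap in either anesthetic, and 7 of the 8 septic libraries were at or under 0.881 CPM (isoflurane: log2 fold change -3.4 ± 0.51, adjusted p = 0.000857; propofol: log2 fold change -5.1 ± 0.49, adjusted p = 8.87e-05; edgeR, n = 4 libraries a group). The reads behind this were few after sepsis, 1 to 17 per Isoflurane-Sepsis library and 1 to 18 per Propofol-Sepsis library, and a single library moved the estimate, to -4.28 without library 3 and to -6.0 without library 9. Nr1i3 passed the read filter through its control libraries, so a call for it could only be lower. The p-values and the lack of overlap are to be read with that limit. The control livers themselves differed, with Nr1i3 3.04-fold lower under isoflurane than under propofol (log2 fold change -1.6 ± 0.40, adjusted p = 0.00802), where 26.3% of all 10621 genes tested were called in that comparison. In septic liver the difference between the anesthetics was not called (log2 fold change 0.088 ± 0.74, adjusted p = 0.934).

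For Nr1i2 the isoflurane controls were at 178, 174, 186 and 185 CPM and the Isoflurane-Sepsis libraries at 57.6, 84.1, 101 and 55.4 CPM. Propofol control libraries had 153, 163, 219 and 174 CPM, against 95, 112, 86.1 and 89.9 CPM in Propofol-Sepsis. Every septic library was below every control in its anesthetic (isoflurane: log2 fold change -1.27 ± 0.19, adjusted p = 0.000886; propofol: log2 fold change -0.89 ± 0.12, adjusted p = 0.000409; edgeR). The ratio of Nr1i3 to Nr1i2 reads, in which library scaling cancels, was 0.0133 to 0.0281 in isoflurane controls and 0.00163 to 0.00899 after sepsis. Under propofol it was 0.056 to 0.0843 in controls and 0.000931 to 0.011 after sepsis.

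**Figure D2:**
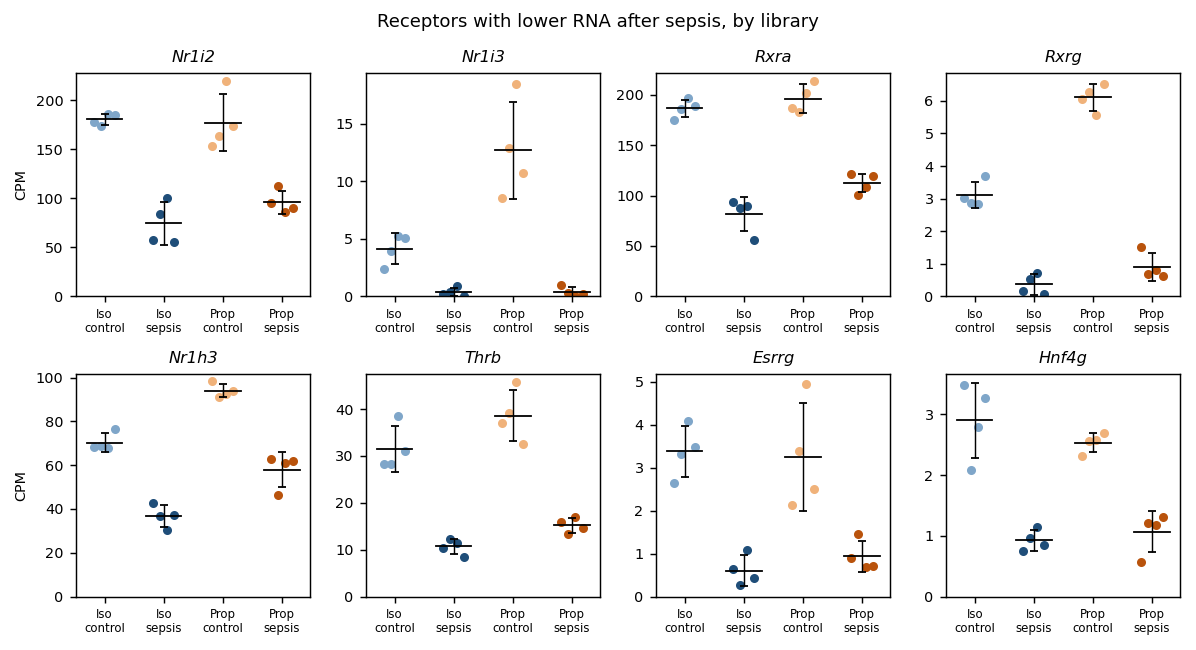
CPM in each library (points) of 8 receptors called lower after sepsis in both anesthetics, by group, with the mean as a horizontal line and the SD over 4 libraries as a bar. The axes start at 0. In every panel the septic points lie below the control points of the same anesthetic, and for Nr1i3, Rxrg and Nr1h3 the isoflurane controls lie below the propofol controls.

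The retinoid X receptors, the shared partners of these heterodimers, moved in different directions. Rxra and Rxrg fell in both anesthetics, and Rxrb, the ubiquitous form, rose under isoflurane. For Rxra, the main RXR of hepatocytes, the isoflurane controls had 175, 186, 196.5 and 188 CPM and the Isoflurane-Sepsis libraries 93.1, 87.8, 89.8 and 55.8 CPM. In the propofol groups, controls were at 187, 182.5, 202 and 213.5 CPM and septic libraries at 121, 101, 108.5 and 119 CPM. The groups did not overlap, with a fall of 2.28-fold under isoflurane and 1.75-fold under propofol (isoflurane: log2 fold change -1.19 ± 0.15, adjusted p = 0.000409; propofol: log2 fold change -0.81 ± 0.079, adjusted p = 9.42e-05; edgeR). Library 4 was the lowest Isoflurane-Sepsis library, and without it the log2 fold change was -1.04. Rxra did not differ by the test between the control livers, and in septic liver it was lower under isoflurane (log2 fold change -0.46 ± 0.12, adjusted p = 0.00961).

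For Rxrg the isoflurane controls had 3.01, 2.87, 2.83 and 3.71 CPM and the Isoflurane-Sepsis libraries 0.1497, 0.516, 0.725 and 0.0604 CPM. With propofol, the values were 6.05, 6.29, 5.57 and 6.53 CPM in controls and 1.52, 0.683, 0.802 and 0.608 CPM in Propofol-Sepsis. All 8 septic libraries were below all 8 controls, by 8.45-fold under isoflurane and 6.94-fold under propofol (isoflurane: log2 fold change -3.08 ± 0.44, adjusted p = 0.000707; propofol: log2 fold change -2.79 ± 0.26, adjusted p = 7.25e-05; edgeR). Without library 3 the isoflurane estimate was -3.73. The Isoflurane-Sepsis libraries had 1 to 14 reads on Rxrg. It was tested there through its controls and could only come out lower. Rxrg was also lower under isoflurane than under propofol in control liver (log2 fold change -0.97 ± 0.30, adjusted p = 0.0284) and in septic liver (log2 fold change -1.26 ± 0.45, adjusted p = 0.0364), but the former call was lost without any of libraries 5, 6, 7, 13, 14, 15 and 16 and the latter without library 1, 4, 9 or 11 and with counts thinned to the shallowest library. Without library 3 the difference in septic liver was -1.89. Rxrb was at 20.9 ± 1.47 CPM in isoflurane controls and 28.7 ± 2.83 CPM (SD, n = 4) after sepsis (log2 fold change 0.46 ± 0.10, adjusted p = 0.00415), and under propofol at 23 ± 0.629 and 25.5 ± 2.96 CPM (log2 fold change 0.14 ± 0.086, adjusted p = 0.212, edgeR). The ratio of Rxrb to Rxra reads was 0.0999 to 0.119 in isoflurane controls and 0.265 to 0.557 after sepsis, and under propofol 0.109 to 0.125 in controls and 0.194 to 0.293 after sepsis.

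Among the receptors that pair with RXR, the oxysterol receptors LXRα and LXRβ, which switch on genes of cholesterol export and lipid synthesis, diverged. Nr1h3 (LXRα) fell in both anesthetics, and Nr1h2 (LXRβ) was called higher under propofol. For Nr1h3 the isoflurane controls had 68.3, 68.8, 67.6 and 76.6 CPM and the Isoflurane-Sepsis libraries 42.7, 36.9, 30.4 and 37.2 CPM. Under propofol, controls had 98.5, 91.4, 92.7 and 93.9 CPM and septic libraries 62.9, 46.2, 60.9 and 61.7 CPM. Septic libraries lay apart from the controls of the same anesthetic (isoflurane: log2 fold change -0.93 ± 0.10, adjusted p = 0.000168; propofol: log2 fold change -0.71 ± 0.10, adjusted p = 0.000403; edgeR), and library 10 was the lowest Propofol-Sepsis library, without which the log2 fold change was -0.61. Nr1h3 was lower under isoflurane than under propofol in control liver (log2 fold change -0.42 ± 0.10, adjusted p = 0.007) and in septic liver (log2 fold change -0.66 ± 0.10, adjusted p = 0.000412), where 38.6% of all genes were called.

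For Nr1h2 the isoflurane controls had 44.95, 38.9, 38.8 and 39.3 CPM and the Isoflurane-Sepsis libraries 41.5, 47.4, 54.6 and 50.1 CPM. Propofol control libraries had 34.5, 35.9, 34.8 and 32.7 CPM, against 40.4, 41.4, 40.2 and 39.01 CPM in Propofol-Sepsis. The groups overlapped under isoflurane (log2 fold change 0.26 ± 0.10, adjusted p = 0.0569), where a call appeared with DESeq2, in the fit of all 16 libraries and without library 1 (adjusted p = 0.00991 to 0.134 over the alternatives), and did not under propofol (log2 fold change 0.22 ± 0.055, adjusted p = 0.0105, edgeR). Between the anesthetics Nr1h2 was higher under isoflurane in control liver (log2 fold change 0.23 ± 0.077, adjusted p = 0.0346) and in septic liver (log2 fold change 0.26 ± 0.076, adjusted p = 0.0137), the reverse of Nr1h3. Both of these calls were lost with scaling by library totals alone, and the former also with no filter on low counts, after thinning and without library 5, 6, 8, 13, 15 or 16. The ratio of Nr1h2 to Nr1h3 reads does not depend on scaling and was 0.513 to 0.659 in isoflurane controls and 0.972 to 1.79 after sepsis, and under propofol 0.348 to 0.393 in controls and 0.632 to 0.897 after sepsis.

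Ratios of this kind were formed for 10 pairs of related receptors in each anesthetic, chosen after their values had been seen. In both anesthetics the ratios Nr1h2 to Nr1h3, Rxrb to Rxra, Nr2c2 to Nr2c1 and Thra to Thrb were higher in every septic library than in every control of the same anesthetic, and Nr1i3 to Nr1i2 was lower in every one. Each of these had an exact permutation p of 0.0286 (two-sided, n = 4 against 4), the smallest this design allows, and 0.052 after Benjamini-Hochberg adjustment over the 20 comparisons, so none passed the threshold. The choice of pairs after the values were seen also means that these p-values lend no support. For Nr2c2 to Nr2c1, the separate genes already parted the groups in opposite directions, which fixed the separation of the ratio. The adjusted value depends on which pairs were included. The shift in the mean log2 ratio of Nr2c2 to Nr2c1 was 1.3 under isoflurane and 1.61 under propofol, and that of Thra to Thrb was 1.42 and 1.54. The shift of 1.54 includes library 10, the library with the brain markers and the highest Thra of its group (SD of the log2 ratio 0.817 in Propofol-Sepsis). The Thra counts are uncertain in all groups, for the reason given below. Ratios that did not separate the groups in either anesthetic were Ppard to Ppara, Rarb to Rara, Rarb to Rarg and Nr2f2 to Nr2f6.

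**Figure D3:**
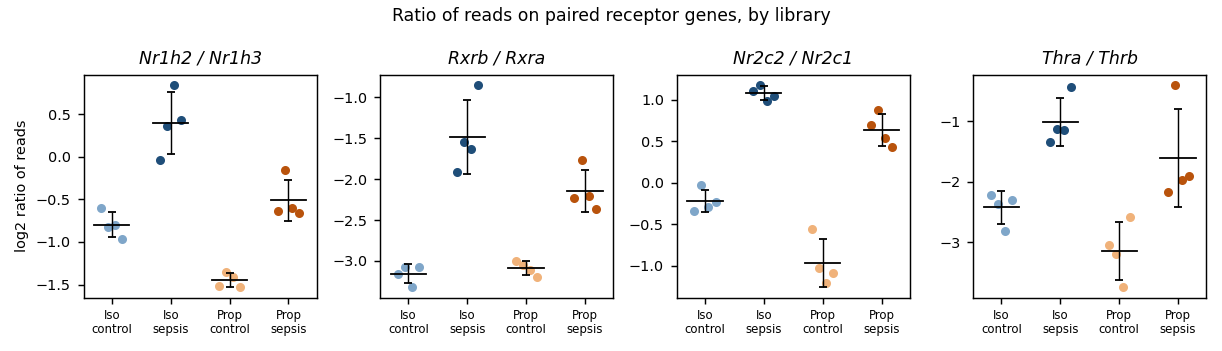
Log2 ratio of the reads on 4 pairs of related receptors in each library (points), by group, with the mean as a line and the SD over 4 libraries as a bar. Each ratio is higher in all 4 septic libraries of an anesthetic than in its 4 controls. Ratios are of reads, not corrected for transcript length, and the axes do not start at 0.

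Of the thyroid hormone receptors, Thrb was called and Thra was not. Thrb, the main form of the liver, fell 2.94-fold under isoflurane and 2.56-fold under propofol. For Thrb the isoflurane controls had 28.2, 28.2, 38.5 and 31.1 CPM and the Isoflurane-Sepsis libraries 10.4, 12.4, 11.4 and 8.52 CPM. In the propofol groups, controls were at 37.1, 39.1, 45.7 and 32.5 CPM and septic libraries at 15.8, 13.3, 16.9 and 14.6 CPM. The highest septic library had 16.9 CPM and the lowest control 28.2 CPM (isoflurane: log2 fold change -1.56 ± 0.15, adjusted p = 0.000111; propofol: log2 fold change -1.36 ± 0.11, adjusted p = 4.48e-05; edgeR). In septic liver Thrb was lower under isoflurane than under propofol (log2 fold change -0.51 ± 0.14, adjusted p = 0.0103). Thra was at 5.82 ± 0.444 CPM in isoflurane controls and 5.32 ± 0.949 after sepsis (log2 fold change -0.13 ± 0.14, adjusted p = 0.47), and at 4.37 ± 0.838 and 5.47 ± 3.14 CPM under propofol (log2 fold change 0.31 ± 0.33, adjusted p = 0.473). The wide spread in Propofol-Sepsis was library 10, at 10.2 CPM where the others of its group had 3.50 to 4.33 CPM, and without it the log2 fold change was -0.16. Library 10 is the library with the brain markers, whose part in its Thra value was not tested. Among other receptors, it was also the highest Propofol-Sepsis library for Rora, Nr4a2, Nr4a3, Nr2c2 and Rxrb. The part of brain RNA in those values was not tested either. The 3′ end of Thra overlaps the clock receptor gene Nr1d1 on the opposite strand, and the library kit keeps the strand, but no source used here says whether the counting kept it, so Thra is uncertain.

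The PPARs, receptors for fatty acids, did not move together. Pparg, the form that drives lipid storage, fell in both anesthetics, Ppard rose under isoflurane, and Ppara, which switches on fatty acid oxidation in the liver, was not called. For Pparg the isoflurane controls had 1.65, 1.39, 1.67 and 1.73 CPM and the Isoflurane-Sepsis libraries 0.998, 0.709, 1.35 and 0.665 CPM. With propofol, the values were 2.06, 2.21, 2.43 and 2.304 CPM in controls and 1.19, 0.732, 0.695 and 0.669 CPM in Propofol-Sepsis. There was no overlap between septic and control libraries (isoflurane: log2 fold change -0.77 ± 0.24, adjusted p = 0.0246; propofol: log2 fold change -1.48 ± 0.22, adjusted p = 0.000697; edgeR), though the isoflurane call was lost without library 2, 5, 7 or 8 (adjusted p up to 0.0698).

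For Ppard the isoflurane controls had 7.15, 7.28, 6.97 and 7.12 CPM and the Isoflurane-Sepsis libraries 8.03, 10.6, 13.4 and 8.94 CPM. Under propofol, controls had 5.99, 5.76, 8.43 and 7.29 CPM and septic libraries 5.704, 7.41, 6.68 and 6.69 CPM. The controls under isoflurane were tightly grouped and all septic libraries lay above them (log2 fold change 0.53 ± 0.16, adjusted p = 0.0229), whereas under propofol the groups overlapped (log2 fold change -0.061 ± 0.14, adjusted p = 0.752, edgeR). The isoflurane call was lost without library 2, 5, 7 or 8 (adjusted p up to 0.0577). In septic liver Ppard was higher under isoflurane (log2 fold change 0.63 ± 0.15, adjusted p = 0.00518). Ppara was at 13.5 ± 1.24 CPM in isoflurane controls and ranged from 7.24 to 47.03 CPM after sepsis, with library 3 highest (log2 fold change 0.64 ± 0.55, adjusted p = 0.354), and it was at 17.1 ± 5.35 and 13.3 ± 5.36 CPM under propofol (log2 fold change -0.37 ± 0.28, adjusted p = 0.303). Without library 3 the isoflurane value was -0.18, and without library 10 the propofol value was -0.69 and was called (adjusted p = 0.0299, edgeR).

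Of the retinoic acid receptors, Rara was called lower under propofol, Rarg lower under isoflurane, and Rarb in neither. Rara had 12.4, 12.3, 12.1 and 11.6 CPM in isoflurane controls and 9.68, 13.5, 15.5 and 10.7 CPM in Isoflurane-Sepsis. It had 12.1, 10.7, 9.95 and 12.96 CPM in propofol controls and 9.49, 9.902, 9.24 and 8.27 CPM in Propofol-Sepsis. The propofol groups did not overlap (log2 fold change -0.32 ± 0.11, adjusted p = 0.0363), the isoflurane groups did (log2 fold change 0.034 ± 0.15, adjusted p = 0.862), and the propofol call was lost in the fit of all 16 libraries and without library 9, 11, 12, 13, 14 or 16 (adjusted p up to 0.106). In septic liver Rara was higher under isoflurane (log2 fold change 0.42 ± 0.13, adjusted p = 0.0187, edgeR), a call lost with scaling by library totals alone and without library 3 or 12.

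Rarb, a receptor gene that retinoic acid itself induces, was called between the anesthetics and not with sepsis. The isoflurane controls had 17.02, 15.1, 16.2 and 17.4 CPM and the Isoflurane-Sepsis libraries 15.4, 14.9, 25.8 and 42.05 CPM. Propofol control libraries had 8.62, 9.49, 9.71 and 8.35 CPM, against 7.34, 8.097, 8.497 and 7.08 CPM in Propofol-Sepsis. Every isoflurane library was above every propofol library, with a difference of 1.82-fold in control liver (log2 fold change 0.86 ± 0.25, adjusted p = 0.0177) and 3.16-fold in septic liver (log2 fold change 1.66 ± 0.25, adjusted p = 0.000298). Sepsis against control was not called in either anesthetic (isoflurane: log2 fold change 0.58 ± 0.30, adjusted p = 0.14; propofol: log2 fold change -0.23 ± 0.10, adjusted p = 0.0806; edgeR), although the isoflurane comparison passed without library 1 (adjusted p = 0.0488) and the propofol comparison with library totals alone (adjusted p = 0.0396). Libraries 3 and 4 had the highest Rarb. Library 4 also had the highest summed markers of stellate cells and fibroblasts, 598 CPM where the other Isoflurane-Sepsis libraries had 291 to 388 and the isoflurane controls 376 to 400.4. Most of that sum was Col3a1, at 412 CPM, while Lrat of the same list was at 10.5 CPM against 14.7 to 18.01 in the isoflurane controls. Of 7 markers tested in the list, 3 were called higher and 1 lower under isoflurane. The part of those cells in the Rarb value of library 4 was not tested. Rarg was at 5.01 ± 0.204 CPM in isoflurane controls and 4.02 ± 0.329 CPM after sepsis (log2 fold change -0.31 ± 0.10, adjusted p = 0.0317), and at 4.997 ± 0.436 and 4.74 ± 0.712 CPM under propofol (log2 fold change -0.074 ± 0.14, adjusted p = 0.699). The isoflurane call of Rarg was lost with DESeq2, with counts thinned to the shallowest library and without library 2, 3, 5, 6, 7 or 8.

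Of the 13 listed receptors that pair with RXR, 12 were tested, and 6 were called lower and 1 higher in each anesthetic, where 24.4% and 25.7% of all genes were under isoflurane and 21.7% and 20.4% under propofol. The list is not of every RXR partner. It leaves out Nr4a1 and Nr4a2, which were called higher in both anesthetics, and Nr2f1 and Nr2f2, which were called in neither. The remaining listed receptor, the vitamin D receptor (Vdr), was too low to test, with 12 reads in all in Isoflurane-Sepsis and 6 in its controls, and 8 against 5 under propofol. The ratio of the septic to the control level was 2.98 under isoflurane (95% exact interval 1.03 to 9.67) and 1.27 under propofol (0.367 to 4.95), and these intervals cover counting error only.

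Among steroid receptors, the mineralocorticoid receptor (Nr3c2) fell in both anesthetics and estrogen receptor α (Esr1) fell under propofol. For Nr3c2 the isoflurane controls had 9.499, 9.999, 10.6 and 9.56 CPM and the Isoflurane-Sepsis libraries 4.09, 5.28, 5.28 and 3.44 CPM. In the propofol groups, controls were at 10.3, 9.78, 9.62 and 8.16 CPM and septic libraries at 6.44, 5.95, 4.54 and 4.5 CPM. The highest septic library had 6.44 CPM and the lowest control 8.16 CPM (isoflurane: log2 fold change -1.13 ± 0.15, adjusted p = 0.000466; propofol: log2 fold change -0.83 ± 0.14, adjusted p = 0.00145; edgeR).

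For Esr1 the isoflurane controls had 4.89, 5.99, 7.71 and 6.54 CPM and the Isoflurane-Sepsis libraries 6.59, 5.41, 4.403 and 2.9 CPM. With propofol, the values were 8.62, 10.7, 9.38 and 9.98 CPM in controls and 5.82, 3.95, 5.02 and 4.87 CPM in Propofol-Sepsis. The groups overlapped under isoflurane (log2 fold change -0.38 ± 0.23, adjusted p = 0.21) and were apart under propofol (log2 fold change -0.99 ± 0.13, adjusted p = 0.000377, edgeR). The propofol controls were the highest of the 4 groups, and Esr1 was lower under isoflurane in control liver (log2 fold change -0.62 ± 0.19, adjusted p = 0.0261), a call lost without library 5, 6, 8, 14 or 16. The comparison of the control livers shares its libraries with the sepsis comparisons.

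The NR4A receptors, orphan receptors encoded by immediate early genes whose activity follows the amount made, rose after sepsis in both anesthetics. Nr4a1 rose 5.73-fold under isoflurane and 8.62-fold under propofol, Nr4a3 8.00-fold and 4.56-fold, and Nr4a2 7.81-fold and 1.70-fold. For Nr4a1 the isoflurane controls had 19.4, 20.5, 7.16 and 25.2 CPM and the Isoflurane-Sepsis libraries 74.4, 72.05, 97.1 and 172 CPM. Under propofol, controls had 1.61, 1.34, 2.67 and 1.54 CPM and septic libraries 10.1, 22.1, 22.1 and 8.79 CPM. The groups did not overlap within an anesthetic (isoflurane: log2 fold change 2.52 ± 0.40, adjusted p = 0.00119; propofol: log2 fold change 3.11 ± 0.38, adjusted p = 0.00024; edgeR), but the isoflurane controls spanned the range of the Propofol-Sepsis libraries. Control livers under isoflurane had 10.0-fold more Nr4a1 than control livers under propofol (log2 fold change 3.32 ± 0.48, adjusted p = 0.000244), and septic livers 6.63-fold more (log2 fold change 2.73 ± 0.40, adjusted p = 0.000245). The response to sepsis was not called different between the anesthetics (log2 difference -0.60 ± 0.62, adjusted p = 0.569).

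For Nr4a2 the isoflurane controls had 1.79, 1.93, 1.76 and 2.06 CPM and the Isoflurane-Sepsis libraries 7.73, 8.89, 10.7 and 32.3 CPM. Propofol control libraries had 1.48, 1.57, 2.05 and 1.39 CPM, against 2.43, 3.51, 3.31 and 1.92 CPM in Propofol-Sepsis. Under isoflurane every septic library was well above the controls and library 4 stood highest (log2 fold change 2.97 ± 0.47, adjusted p = 0.00118; 2.27 without library 4), while under propofol the groups overlapped (log2 fold change 0.76 ± 0.24, adjusted p = 0.0268, edgeR). The propofol call was lost in the fit of all 16 libraries and without library 10, 11, 13, 14 or 16. No difference between control livers was called (log2 fold change 0.22 ± 0.43, adjusted p = 0.748), and septic livers had 5.37-fold more under isoflurane (log2 fold change 2.42 ± 0.38, adjusted p = 0.000391; 1.72 without library 4). The difference in the response was 2.21 ± 0.57 on the log2 scale and just missed the threshold in edgeR (adjusted p = 0.0523), and it passed with DESeq2 (adjusted p = 0.00368) and without library 1, 2 or 4 (1.5 without library 4), over a range of 0.00368 to 0.111 across the alternatives.

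For Nr4a3 the isoflurane controls had 0.846, 0.842, 0.232 and 0.792 CPM and the Isoflurane-Sepsis libraries 1.896, 5.35, 6.84 and 8.096 CPM. In the propofol groups, controls were at 0.193, 0.233, 0.1904 and 0.384 CPM and septic libraries at 0.904, 1.95, 1.34 and 0.608 CPM. The groups did not overlap within an anesthetic (isoflurane: log2 fold change 3.0 ± 0.48, adjusted p = 0.00125; propofol: log2 fold change 2.19 ± 0.44, adjusted p = 0.00331; edgeR), though the propofol controls had 3 to 8 reads each. Under propofol Nr4a3 was tested through its septic libraries, so a call could only be higher. In septic liver Nr4a3 was higher under isoflurane (log2 fold change 2.22 ± 0.43, adjusted p = 0.00149), with an overlap between library 1 and library 10. The ratio of Nr4a1 to Nr4a2 reads was 4.01 to 12.2 in isoflurane controls and 5.32 to 9.6 after sepsis, and under propofol 0.855 to 1.3 in controls and 4.1 to 6.63 after sepsis.

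**Figure D4:**
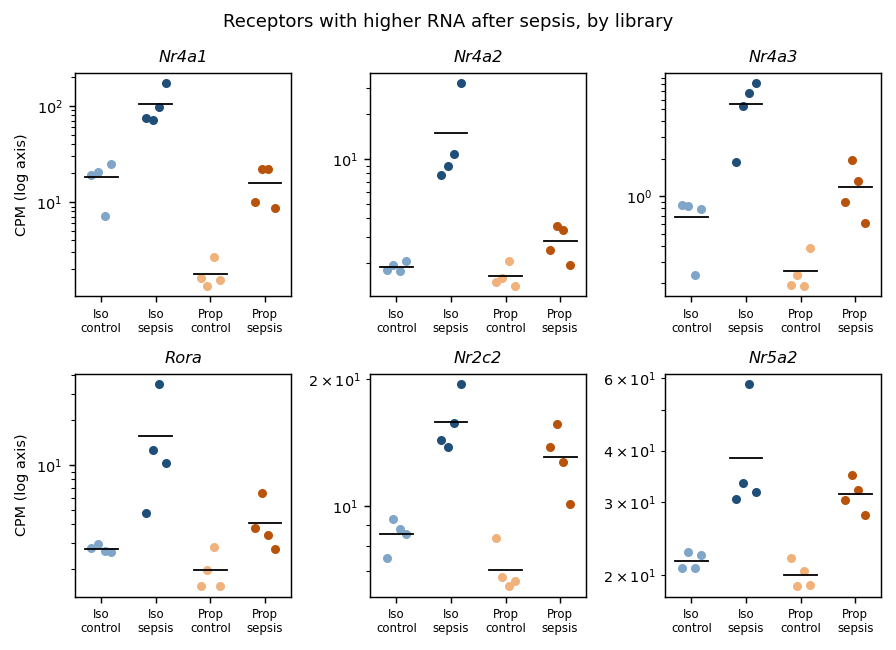
CPM in each library (points, log axis) of the 6 receptors called higher after sepsis in both anesthetics, by group, with the arithmetic mean as a line. The Isoflurane-Sepsis points of Nr4a1 lie between 72.05 and 172 CPM and the propofol controls between 1.34 and 2.67 CPM, and for Nr4a2 and Rora the propofol groups overlap.

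Among the other orphan receptors, 9 of the 13 listed were tested, and 3 were called lower and 3 higher in each anesthetic (24.4% and 25.7% of all genes under isoflurane, 21.7% and 20.4% under propofol). Rora, which binds DNA as a monomer and shares response elements with the clock repressors, rose. Its isoflurane controls had 2.77, 2.97, 2.65 and 2.62 CPM and the Isoflurane-Sepsis libraries 4.79, 12.5, 34.9 and 10.3 CPM. With propofol, the values were 1.54, 1.98, 2.81 and 1.54 CPM in controls and 3.78, 6.49, 3.37 and 2.74 CPM in Propofol-Sepsis. Library 3 was far above the rest of its group (log2 fold change 2.52 ± 0.55, adjusted p = 0.00512; 1.73 without library 3), and under propofol the groups overlapped (log2 fold change 1.04 ± 0.30, adjusted p = 0.021, edgeR), with the call lost in the fit of all 16 libraries and without library 13, 14 or 16. The highest Propofol-Sepsis value, 6.49 CPM, was in library 10, the library with the brain markers. The call was kept without it, and the part of brain RNA in this value was not tested. In septic liver Rora was higher under isoflurane (log2 fold change 1.94 ± 0.45, adjusted p = 0.00396; 1.17 without library 3). The same library 3 was the highest for Ppara and for Nr5a2 (LRH-1, a regulator of bile acid and cholesterol genes). Nr5a2 was at 21.7 ± 0.975 CPM in isoflurane controls and 38.4 ± 13.2 CPM after sepsis (log2 fold change 0.84 ± 0.21, adjusted p = 0.00941), with 58.1 CPM in library 3 and 30.4 to 33.4 CPM in the others, and 0.55 without it. Under propofol Nr5a2 rose from 20.01 ± 1.51 to 31.3 ± 2.98 CPM (log2 fold change 0.64 ± 0.086, adjusted p = 0.000396).

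The testicular receptors TR2 (Nr2c1) and TR4 (Nr2c2), which act as a heterodimer, moved apart. Nr2c2 rose from 8.54 ± 0.748 to 15.9 ± 2.57 CPM under isoflurane (log2 fold change 0.89 ± 0.13, adjusted p = 0.000654) and from 7.04 ± 0.892 to 13.1 ± 2.304 CPM under propofol (log2 fold change 0.88 ± 0.14, adjusted p = 0.00111). For Nr2c1 the isoflurane controls had 9.499, 9.46, 10.7 and 10.1 CPM and the Isoflurane-Sepsis libraries 6.69, 6.06, 7.92 and 9.43 CPM. Under propofol, controls had 12.3, 13.9, 14.9 and 14.2 CPM and septic libraries 8.47, 8.49, 8.76 and 7.48 CPM. Septic libraries were lower, narrowly so under isoflurane, where library 4 and library 6 nearly met (log2 fold change -0.40 ± 0.14, adjusted p = 0.0399) and widely under propofol (log2 fold change -0.74 ± 0.089, adjusted p = 0.00023, edgeR). The isoflurane call was lost without library 1, 2, 5, 6, 7 or 8 (adjusted p up to 0.0988), and Nr2c1 was lower under isoflurane in control liver (log2 fold change -0.47 ± 0.11, adjusted p = 0.00618).

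ERRγ (Esrrg), an orphan receptor tied to mitochondrial and gluconeogenic genes, fell 5.39-fold under isoflurane and 3.48-fold under propofol. Its isoflurane controls had 2.63, 3.32, 4.09 and 3.48 CPM and the Isoflurane-Sepsis libraries 0.649, 0.258, 1.09 and 0.423 CPM. Propofol control libraries had 2.12, 3.38, 4.95 and 2.496 CPM, against 0.904, 1.46, 0.695 and 0.699 CPM in Propofol-Sepsis. Septic libraries lay apart from the controls of the same anesthetic (isoflurane: log2 fold change -2.43 ± 0.34, adjusted p = 0.000584; propofol: log2 fold change -1.8 ± 0.34, adjusted p = 0.00229; edgeR). The reads on Esrrg were few after sepsis, 4 to 21 per Isoflurane-Sepsis library and 13 to 30 per Propofol-Sepsis library. Under isoflurane it passed the read filter through its controls, so the size of the fall is uncertain. HNF4γ (Hnf4g), a relative of the hepatocyte regulator HNF4α, fell 3.14-fold and 2.35-fold. Its isoflurane controls had 3.48, 2.08, 2.79 and 3.27 CPM and the Isoflurane-Sepsis libraries 0.748, 0.967, 1.14 and 0.846 CPM. In the propofol groups, controls were at 2.32, 2.56, 2.57 and 2.69 CPM and septic libraries at 0.565, 1.22, 1.18 and 1.31 CPM. The highest septic library had 1.31 CPM and the lowest control 2.08 CPM (isoflurane: log2 fold change -1.65 ± 0.22, adjusted p = 0.000512; propofol: log2 fold change -1.23 ± 0.24, adjusted p = 0.00299; edgeR).

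The COUP-TF receptors, which often repress the genes that other nuclear receptors switch on, were not called. Nr2f6 was at 69.2 ± 3.16 CPM in isoflurane controls and 71.9 ± 2.54 CPM after sepsis (log2 fold change 0.059 ± 0.065, adjusted p = 0.48), and at 69.6 ± 7.998 and 65.7 ± 2.14 CPM under propofol (log2 fold change -0.089 ± 0.084, adjusted p = 0.416). Nr2f2 ranged from 11.2 to 12.3 CPM in isoflurane controls, 8.04 to 12.9 CPM after sepsis, and 11.3 to 14.7 and 11.9 to 12.98 CPM under propofol (isoflurane: log2 fold change -0.18 ± 0.14, adjusted p = 0.305; propofol: log2 fold change -0.035 ± 0.094, adjusted p = 0.788; edgeR). Nr2f1 was at 1.85 ± 0.232 and 1.28 ± 0.324 CPM under isoflurane (log2 fold change -0.51 ± 0.20, adjusted p = 0.0634), where it passed with library totals alone, after thinning and without library 1 (adjusted p = 0.0235 to 0.156 over the alternatives), and at 1.53 ± 0.231 and 1.74 ± 0.731 CPM under propofol (log2 fold change 0.15 ± 0.31, adjusted p = 0.712). A p that misses the threshold does not show that these receptors did not change.

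The remaining receptors were at the limit of detection. Nr0b1 and Rorb had 0 reads in all 16 libraries, which at 3 reads over a group allows levels of up to 0.0262 to 0.0432 CPM, and Esr2 had 1 read, in library 12. Esrrb had 5 reads in all in Isoflurane-Sepsis and 10 in its controls, and 5 in each propofol group. The progesterone receptor (Pgr) was too low for the test but differed in reads. The Isoflurane-Sepsis libraries had 2, 2, 2 and 6 reads and the isoflurane controls 0, 0, 0 and 1, a ratio of 17.9 relative to reads on all genes (95% exact interval 2.64 to 764). The Propofol-Sepsis libraries had 2, 1, 1 and 4 reads and the propofol controls 0. This is 2.12-fold higher when the controls are set to a floor of 3 reads over the group. The 95% exact interval of the ratio begins at 1.36 and has no upper end. The intervals and the floor cover counting error only. With no filter on low counts edgeR called Pgr higher in both anesthetics.

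The interaction of anesthetic and sepsis, fitted to all 16 libraries, asked whether the receptors responded differently to sepsis. No receptor of the 29 was called by edgeR, where 2.72% of all 10621 genes were (1.66% in the positive and 1.06% in the negative direction). At an unadjusted p below 0.05 there were 7, and the share of all genes at that level was not counted. DESeq2 called 1, Nr4a2, and called 847 genes in all. The 7, with log2 differences of isoflurane minus propofol, were Nr4a2 (2.21 ± 0.57), Rora (1.47 ± 0.68), Rarb (0.80 ± 0.35), Esr1 (0.60 ± 0.28), Ppard (0.58 ± 0.21), Rxrb (0.31 ± 0.13) and Rxra (-0.39 ± 0.17). Without library 1, edgeR called 5 of them, namely Nr4a2, Ppard, Rarb, Rxrb and Rora. That setting called 1615 genes in all, where the fit of all 16 libraries called 289, so the rise was not particular to the receptors. In the direct comparison of the anesthetics, 8 receptors were called in control liver, 3 higher and 5 lower under isoflurane, where 13% and 13.3% of all genes were. In septic liver 12 were called, 8 higher and 4 lower, where 19.6% and 19% of all genes were. With scaling by library totals alone the split was 2 higher and 8 lower in control liver and 6 higher and 7 lower in septic liver. The groups did not overlap for 4 receptors that were higher and 6 lower in control liver (20% and 19.6% of all genes) and for 6 higher and 3 lower in septic liver (12.6% and 12.4%). These comparisons share libraries with the sepsis comparisons, and induction drugs and library series cannot be told apart from the anesthetic.

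The known target genes of these receptors and their coregulators were then counted. The lists were written by hand from textbook knowledge, and their counts stand beside the 24.4% of all genes called lower and 25.7% higher under isoflurane and the 21.7% and 20.4% under propofol. Of the CAR and PXR targets, enzymes and transporters of drug clearance, 13 of 20 tested were called lower and 1 higher under isoflurane, and 14 of 19 lower and 1 higher under propofol (24.4% and 21.7% of all genes were lower), with a median log2 fold change of -0.89 in each (0.01 and 0 over all genes). Under isoflurane Alas1, the rate-limiting enzyme of heme synthesis, fell from 159 ± 10.8 to 73.3 ± 4.505 CPM (log2 fold change -1.11 ± 0.079, adjusted p = 3.97e-05), Aldh1a1, a retinaldehyde dehydrogenase, from 37.9 ± 4.53 to 13.3 ± 2.48 CPM (log2 fold change -1.5 ± 0.15, adjusted p = 0.000134), and Abcb1a, a drug efflux pump, from 17.1 ± 1.07 to 3.94 ± 1.67 CPM (log2 fold change -2.11 ± 0.25, adjusted p = 0.000325). Under propofol Cyp2c7, a cytochrome P450, fell from 727.5 ± 39.5 to 378 ± 30.5 CPM (log2 fold change -0.95 ± 0.073, adjusted p = 3.35e-05), Abcc2, an exporter of conjugates into bile, from 314 ± 18.7 to 119 ± 23.8 CPM (log2 fold change -1.4 ± 0.12, adjusted p = 6.01e-05), and Gstm1, a glutathione transferase, from 653 ± 75.8 to 334 ± 28.2 CPM (log2 fold change -0.97 ± 0.094, adjusted p = 8.87e-05) (edgeR). The exception that rose in both anesthetics was Cyp3a9 (0.45 and 0.81). Cyp2b1 (-3.07 and -2.18) and Cyp2b2 (-1.95 and -1.66), named here after their values were seen because they are the classical CAR targets of the rat, were called lower in both, but they are near-identical in sequence and reads may have been divided between them.

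Of the PPARα targets, enzymes and carriers of fatty acid oxidation, 12 of 21 tested were called lower in each anesthetic and 1 higher under isoflurane, where 24.4% of all genes were lower under isoflurane and 21.7% under propofol, with a median of -0.88 under isoflurane and -0.74 under propofol, while Ppara itself was not called. Under isoflurane Cpt1a, the gate for fatty acid entry into mitochondria, fell from 409 ± 36.05 to 47.5 ± 8.87 CPM (log2 fold change -3.1 ± 0.15, adjusted p = 1.01e-05), Cpt2, its partner on the inner membrane, from 44.7 ± 5.01 to 15.1 ± 1.62 CPM (log2 fold change -1.56 ± 0.11, adjusted p = 4.01e-05), and Vnn1, a pantetheinase, from 9.85 ± 0.359 to 4.19 ± 0.731 CPM (log2 fold change -1.23 ± 0.12, adjusted p = 0.00015). Under propofol Creb3l3, a transcription factor of fasting, fell from 431 ± 55.1 to 216.5 ± 11.7 CPM (log2 fold change -1.0 ± 0.091, adjusted p = 6.44e-05), Cpt2 from 146 ± 36.1 to 52.1 ± 3.45 CPM (log2 fold change -1.49 ± 0.15, adjusted p = 0.000111), and Fgf21, a hormone of fasting, from 67.7 ± 37.4 to 6.32 ± 1.07 CPM (log2 fold change -3.42 ± 0.40, adjusted p = 0.000197) (edgeR). The gene that rose under isoflurane was Pdk4 (3.6), a kinase that shuts off pyruvate dehydrogenase. The interaction was called for Cpt1a, whose log2 fold change was lower under isoflurane than under propofol (difference -1.46, edgeR adjusted p = 0.0268).

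The LXR targets were divided, with 5 of 13 called lower and 5 higher under isoflurane and 4 lower and 3 higher under propofol (of all genes, 24.4% and 25.7%, and 21.7% and 20.4%). Without 1 library the isoflurane count of 10 was 6 to 8. Abca1, the exporter of cholesterol to apolipoprotein A-I, rose from 210.0 ± 8.96 to 372 ± 52.96 CPM (log2 fold change 0.83 ± 0.10, adjusted p = 0.000379) under isoflurane and from 134 ± 11.2 to 332 ± 52.2 CPM (log2 fold change 1.31 ± 0.12, adjusted p = 5.63e-05) under propofol. Lpcat3, an acyltransferase of phospholipids, fell from 51.02 ± 2.21 to 36.8 ± 2.67 CPM (log2 fold change -0.47 ± 0.072, adjusted p = 0.000952) and Abcg8, a sterol transporter of the bile canaliculus, from 6.18 ± 1.05 to 2.66 ± 0.958 CPM (log2 fold change -1.21 ± 0.25, adjusted p = 0.00398) under isoflurane. Fasn, fatty acid synthase, fell from 925 ± 313 to 358 ± 66.8 CPM (log2 fold change -1.37 ± 0.23, adjusted p = 0.00135) and Abcg5, the partner of Abcg8, from 14.7 ± 0.834 to 10.3 ± 1.59 CPM (log2 fold change -0.52 ± 0.11, adjusted p = 0.00516) under propofol (edgeR).

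Among the targets of retinoic acid, thyroid hormone and vitamin D, 2 of 10 tested were called lower and 3 higher under isoflurane, and 4 of 11 lower and 1 higher under propofol. Under isoflurane these shares lie near the 24.4% and 25.7% of all genes, and under propofol the shares of all genes were 21.7% and 20.4%. Dhrs3, a retinaldehyde reductase, fell from 13.02 ± 1.55 to 3.17 ± 1.07 CPM (log2 fold change -2.02 ± 0.22, adjusted p = 0.000197) under isoflurane and from 30.9 ± 4.04 to 8.61 ± 1.94 CPM (log2 fold change -1.85 ± 0.16, adjusted p = 5.63e-05) under propofol. Tgm2, transglutaminase 2, rose from 128 ± 17.2 to 429.5 ± 87.4 CPM (log2 fold change 1.75 ± 0.17, adjusted p = 0.000112) and Gpd2, mitochondrial glycerol-3-phosphate dehydrogenase, from 2.43 ± 0.473 to 3.69 ± 0.435 CPM (log2 fold change 0.60 ± 0.17, adjusted p = 0.0169) under isoflurane. Under propofol Thrsp, a thyroid hormone-responsive gene of lipid synthesis, fell from 586 ± 163 to 295.5 ± 71.3 CPM (log2 fold change -0.99 ± 0.22, adjusted p = 0.00591) (edgeR). The differences in response between the anesthetics were called for Tgm2 (1.53, adjusted p = 0.00351) and Gpd2 (0.98, adjusted p = 0.049, edgeR).

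Coregulators, the proteins that receptors recruit to open or close chromatin, were called lower for 2 and higher for 6 of 15 tested under isoflurane, and lower for 5 and higher for 2 under propofol. In all, 8 and 7 of 15 were called, near the 50% and 42.1% of all genes, and no coregulator's response was called different between the anesthetics. Under isoflurane Prmt1, an arginine methyltransferase, rose from 18.4 ± 1.58 to 28.5 ± 3.53 CPM (log2 fold change 0.63 ± 0.10, adjusted p = 0.00121) and Nrip1 (RIP140), a corepressor of metabolic genes, from 15.97 ± 1.18 to 61.2 ± 39.95 CPM (log2 fold change 1.95 ± 0.40, adjusted p = 0.00389). Under propofol Tbl1x, a subunit of the corepressor complexes, fell from 33.5 ± 2.83 to 21.7 ± 2.08 CPM (log2 fold change -0.63 ± 0.088, adjusted p = 0.000471), Ncoa2, a coactivator of the p160 family, fell from 24.2 ± 1.797 to 19.1 ± 1.13 CPM (log2 fold change -0.35 ± 0.077, adjusted p = 0.00541), and Med1, a Mediator subunit that contacts receptors, rose from 27.6 ± 2.59 to 35.6 ± 2.76 CPM (log2 fold change 0.36 ± 0.084, adjusted p = 0.00725) (edgeR).

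**Figure D5:**
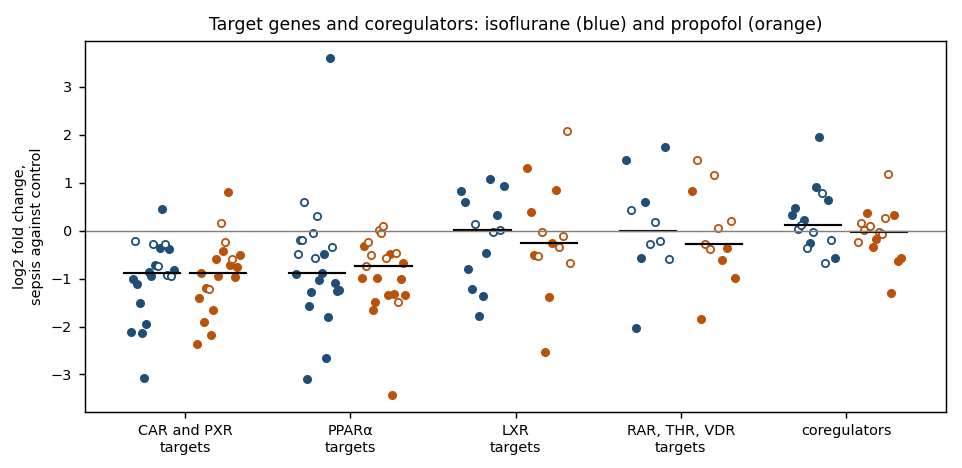
Log2 fold change in sepsis against control (vertical axis) of each tested gene in 5 lists, under isoflurane (blue, left of each pair) and propofol (orange, right), with filled points for an adjusted p below 0.05, open points for genes not called, and a line at the median. The CAR and PXR targets (median -0.89 in each anesthetic) and the PPARα targets (-0.88 and -0.74) lie mostly below 0, and the other lists lie on both sides of it.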

How the data were processed

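Poly(A) RNA of pooled rat livers was made into strand-keeping libraries and read from 1 end. The submitters' processing notes name STAR and build rn5. The counting program and annotation were not named. The authors deposited counts, whole numbers of reads per gene symbol and library without normalization. Entries naming no gene (reads outside genes, 21.6% to 25.4%, and ambiguous reads, 1.07% to 1.35% of each file) were left out. Groups came from the sample titles. Replicates were compared in pairs by chi-square, 3.35 to 96.4 per degree of freedom, so all pairs differed by more than sampling noise.

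Within each anesthetic 4 septic libraries were compared with 4 controls with edgeR 4.0.16 in R 4.3.3 (glmQLFit, glmQLFTest, TMM, filterByExpr with a minimum count of 10 and total of 15, Benjamini-Hochberg over all genes). The interaction and the anesthetic comparisons used all 16 libraries. Read ratios had 0.5 added to each count for logs and were tested by exact permutation over libraries, on pairs chosen after their values were seen. SDs are over 4 libraries. On simulated counts for the isoflurane comparison (10361 genes, 200 changed), the test recovered 73% of genes changed by 1 and 97% of those changed by 2 on the log2 scale, with 6.59% of calls false. For the propofol comparison (10348 genes) these were 84%, 95% and 8.67%, and for the interaction (10621 genes) 63%, 89% and 3.8%. In the data 50% and 42.1% of genes were called in the sepsis comparisons, far more than the 200 changed here. The simulated rates may therefore not hold for those comparisons. Genes with values per library are receptors called with a log2 fold change of at least 1 in size after sepsis or called between anesthetics, and of each target or coregulator list the 3 genes with the smallest adjusted p are named, except 2 that are not reported here. Alternatives were RLE size factors, library totals alone, no count filter, a CPM filter (mean of 1 or more), thinning every library to the lowest total, a joint fit of the 16 libraries, DESeq2 1.42.0 (the tool of the study) and each library left out. The receptors, lists and tests were chosen with earlier results of these data known. Depth limits precision, and intervals cover counting error only.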

Additional observations from a re-analysis of the deposited data

Results flagged for a closer look

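In groups of 4 libraries, a library whose gap to the nearest other exceeded 0.829 of its group's range was marked. Of 116 groups of receptor values examined (29 receptors in 4 groups), 11 (9.48%) were marked, where chance marks about 1 in 20. Their causes were not tested.

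Among septic libraries, library 4 of Isoflurane-Sepsis was marked for Nr4a2, at 32.3 CPM where the others had 7.73 to 10.7, and for Rxra, at 55.8 CPM where the others had 87.8 to 93.1. Library 3 was marked for Nr5a2, at 58.1 CPM where the others had 30.4 to 33.4. Library 10 of Propofol-Sepsis was marked for Thra, at 10.2 CPM where the others had 3.50 to 4.33, and for Nr1h3, at 46.2 CPM where the others had 60.9 to 62.9. Library 9 was marked for Pparg, at 1.19 CPM where the others had 0.669 to 0.732.

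Among control libraries, library 5 of isoflurane control was marked for Nr1h2, at 45.0 CPM where the others had 38.8 to 39.3. Library 8 was marked for Nr1h3, at 76.6 CPM where the others had 67.6 to 68.8, and library 7 for Nr4a3, at 0.232 CPM where the others had 0.792 to 0.846. Library 13 of propofol control was marked for Nr2c2, at 8.37 CPM where the others had 6.43 to 6.75, and library 14 for Rxrb, at 22.1 CPM where the others had 23.2 to 23.4.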

How the results depend on the processing

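Of the receptors called after sepsis, 16 of 20 under isoflurane and 17 of 20 under propofol kept their call and direction in every alternative in which they were tested, the exceptions being Nr2c1, Ppard, Pparg and Rarg under isoflurane and Nr4a2, Rara and Rora under propofol. Nr4a3 under propofol had too few reads to be tested with a mean CPM of at least 1 or after thinning. With each library left out in turn, receptors called under isoflurane numbered 9 to 12 lower and 7 to 10 higher, and under propofol 12 to 14 lower and 5 to 7 higher. The interaction was called for 0 to 5 receptors (5 without library 1, 1 without library 2 or 4) and for 1 with DESeq2. Over all genes it was called for 289 in the main fit, 1615 without library 1 and 847 with DESeq2. The comparison of control livers gave 5 to 9 (5 without library 5, 6 or 16) and that of septic livers 11 to 15. Scaling by library totals alone moved the median of all genes by -0.145 (log2) in control liver and -0.149 in septic liver. There the calls between the anesthetics went from 3 higher and 5 lower to 2 and 8, and from 8 and 4 to 6 and 7.

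Among the lists under isoflurane, leaving out libraries gave 6 to 8 LXR targets called where all libraries gave 10 (6 without library 6), 2 to 6 retinoic acid, thyroid hormone and vitamin D targets where all gave 5 (2 without library 6, 3 without library 5, 7 or 8), and 5 to 8 coregulators where all gave 8 (5 without library 2, 5, 6, 7 or 8). Under propofol 3 to 5 of the retinoic acid, thyroid hormone and vitamin D targets were called where all gave 5 (3 without library 10, 13, 14 or 15), and 3 with no filter on low counts.

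In the sepsis comparisons signs changed for receptors not called there and for no called one. With library totals alone Nr2f6 was at -0.010 and Rara at -0.036 under isoflurane. After thinning Rara was at -0.012 under isoflurane, and Ppard at 0.027 and Rarg at 0.0093 under propofol. With each library left out in turn, the log2 fold change under isoflurane ranged from -0.18 to 0.93 for Ppara (below 0 without library 3) and from -0.11 to 0.14 for Rara (below 0 without library 2 or 3). Under propofol it ranged from -0.086 to 0.37 for Nr2f1 (below 0 without library 9 or 10), from -0.16 to 0.46 for Thra (below 0 without library 10), from -0.091 to 0.050 for Nr2f2 (above 0 without library 16) and from -0.13 to 0.049 for Ppard (above 0 without library 15). The cause was not tested. No paired analysis was possible because the groups compared share no replicate number. Where few reads were counted, as for Nr1i3, Rxrg and Esrrg after sepsis, depth limits the size of the fold change.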

Other observations

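Receptors of the superfamily outside the 36 were counted from a further list, of which 8 were tested. Under isoflurane 3 were called lower and 1 higher, and under propofol 3 lower, where 24.4% and 25.7% of all genes were under isoflurane and 21.7% were lower under propofol. Hnf4a, the hepatocyte regulator, fell from 679 ± 15.5 to 325 ± 50.6 CPM (log2 fold change -1.06 ± 0.11, adjusted p = 0.000155) under isoflurane and from 967 ± 36.1 to 584 ± 40.99 CPM (log2 fold change -0.73 ± 0.065, adjusted p = 5.63e-05) under propofol. Nr1h4, the bile acid receptor FXR, fell from 35.1 ± 5.04 to 9.96 ± 1.88 CPM (log2 fold change -1.81 ± 0.16, adjusted p = 8.11e-05) and from 63.9 ± 12.1 to 14.8 ± 2.67 CPM (log2 fold change -2.11 ± 0.16, adjusted p = 3.22e-05), and its target Nr0b2 (SHP) fell from 1.22 ± 0.375 to 0.184 ± 0.148 CPM (log2 fold change -2.71 ± 0.54, adjusted p = 0.00339) and from 8.03 ± 4.23 to 0.736 ± 0.167 CPM (log2 fold change -3.42 ± 0.43, adjusted p = 0.000284) (edgeR). The receptor that rose under isoflurane was Nr3c1 (0.73), the glucocorticoid receptor.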
